A study of Rattus norvegicus with 6 samples.

Results

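The nuclear genes for proteins of the mitochondrial ribosome were followed in the renal cortex of rats given o-nitroanisole. The members were all rat genes with symbols starting in Mrpl or Mrps that a non-control probe of the array named through its RefSeq accession, which gave 66 of the 15278 gene symbols on the array. Of these, 42 were Mrpl genes and 24 were Mrps genes, named for the large and the small subunit. Genes were chosen by symbol, and the probe standing for each was selected on brightness on these arrays. The comparison of o-nitroanisole with corn oil was already known when this gene family was picked, so the differences of its members are given as a description, without a test.

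Both groups held 3 rats, which the study calls biological replicates, and each rat had 1 one-colour (Cy3) Agilent array of total RNA. The rats, all male Sprague-Dawley (Crl:CD(SD)), were 5 weeks old at purchase and were given either corn oil or o-nitroanisole at 400 mg/kg/day for 4 weeks. o-Nitroanisole is an aromatic nitro compound used to make dyes. Levels are log2 processed signal minus the 75th percentile of the array, so 0 is that percentile, and differences are o-nitroanisole minus corn oil. Each group had a slide and a scan of its own, so slide, scan and treatment cannot be told apart in any value below.

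The mitochondrial ribosome translates the few messenger RNAs made from mitochondrial DNA, all of which encode subunits of the respiratory chain and ATP synthase. Its ribosomal RNAs come from mitochondrial DNA, but all of its proteins are encoded in the nucleus, made in the cytosol and imported. Some of these proteins have counterparts in bacterial ribosomes and others are found only in mitochondria. The proximal tubule, which makes up much of the renal cortex, is rich in mitochondria and depends on oxidative phosphorylation for reabsorption. All 9 proximal tubule markers tested were well above background on every array, so markers of the labelled tissue were present.

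Start regions are shown for the 2 Mrpl and the 2 Mrps genes with the largest differences among those holding a searched motif, since GABPA, NRF1 and YY1 are known regulators of nuclear genes for mitochondria. Each window, from RefSeq on build GRCr8, runs 5′ to 3′ on the gene's strand over 300 bases, from 250 before the annotated start to 50 after it. Capitals mark motif matches on either strand.

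Mrpl46 lies on the minus strand at chr1:142116981-142117280, and its window holds a YY1 match 24 bases after the start.

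Mrpl46 promoter: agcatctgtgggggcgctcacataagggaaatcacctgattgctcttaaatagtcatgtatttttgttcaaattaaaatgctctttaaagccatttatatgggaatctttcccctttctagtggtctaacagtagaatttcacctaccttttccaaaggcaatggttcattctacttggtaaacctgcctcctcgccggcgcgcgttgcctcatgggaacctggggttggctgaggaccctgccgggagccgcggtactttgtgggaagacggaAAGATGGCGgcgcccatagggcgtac

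Mrpl37 lies on the minus strand at chr5:127074918-127075217, with a YY1 match 6 bases after the start and a CCAAT box 73 bases before it.

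Mrpl37 promoter: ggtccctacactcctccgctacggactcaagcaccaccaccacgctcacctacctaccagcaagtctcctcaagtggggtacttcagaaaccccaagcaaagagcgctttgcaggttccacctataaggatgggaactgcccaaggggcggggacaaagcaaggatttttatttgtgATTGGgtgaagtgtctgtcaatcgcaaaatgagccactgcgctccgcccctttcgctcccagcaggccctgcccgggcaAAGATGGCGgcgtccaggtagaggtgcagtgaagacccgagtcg

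Mrps5 lies on the plus strand at chr3:135274083-135274382, with a CCAAT box 140 bases before the start.

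Mrps5 promoter: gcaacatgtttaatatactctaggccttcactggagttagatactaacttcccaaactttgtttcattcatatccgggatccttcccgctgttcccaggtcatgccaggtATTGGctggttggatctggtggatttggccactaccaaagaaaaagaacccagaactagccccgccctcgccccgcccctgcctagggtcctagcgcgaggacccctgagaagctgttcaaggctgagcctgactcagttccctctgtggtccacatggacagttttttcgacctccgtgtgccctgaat

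Mrps18c lies on the minus strand at chr14:9122857-9123156, with a GABPA match 139 bases and an E-box 146 bases before the start.

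Mrps18c promoter: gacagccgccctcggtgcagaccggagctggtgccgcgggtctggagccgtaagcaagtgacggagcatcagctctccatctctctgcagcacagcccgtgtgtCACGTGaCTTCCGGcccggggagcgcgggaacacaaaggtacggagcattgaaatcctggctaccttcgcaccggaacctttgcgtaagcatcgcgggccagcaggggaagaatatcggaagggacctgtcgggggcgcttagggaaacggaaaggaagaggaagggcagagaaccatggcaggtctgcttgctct

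Promoter windows were found for 54 of the 66 members, 56 windows in all, since 2 genes had 2. Motifs were searched on both strands. CCGGAAG, bound by GABPA and related ETS factors, stood in 19 of the 56 windows (33.9%), against 8.75% of all 33469 windows of that length in the table. The palindromic NRF1 motif stood in 9 windows (16.1%, against 4.25%). The YY1 motif AAGATGGCG stood in 8 (14.3%, against 1.73%). At least 1 of these 3 was found in 29 windows, or 51.8%, against 13.4% of all windows. The E-box CACGTG was found in 6 of the 56 windows, against 6.42% of all windows. The CCAAT box was found in 26 windows (46.4%, against 37.5%). The family's windows were also richer in G and C, with a median of 56% against 51.7%. The median log2 difference of members was 0.13 with and 0.12 without the NRF1 motif, 0.09 with and 0.14 without the GABPA motif, and 0.17 with and 0.11 without the YY1 motif. It was 0.10 with and 0.12 without the E-box, and 0.13 with and 0.10 without the CCAAT box, and none of these gaps was tested. A match is a run of letters in a window and does not show that a factor binds there.

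Many members start back to back with another gene. Of the 56 annotated member starts, 17 (30.4%) had a gene on the other strand starting within 1000 bases upstream, against 3686 of all 33469 starts, at a median distance of 194 bases. Mrpl46 and Mrps11 form such a pair, 234 bases apart, so that a large and a small subunit gene share 1 start region. The difference was 0.31 ± 0.05 (SE, n = 3 per group) for Mrpl46 and 0.12 ± 0.05 for Mrps11. Mrpl49 and Fau, which encodes a cytosolic ribosomal protein, start 186 bases apart and differed by 0.16 ± 0.05 and 0.17 ± 0.06. Mrpl47 and Ndufb5, a complex I subunit, start 244 bases apart and differed by 0.04 ± 0.05 and 0.17 ± 0.06. Opposite signs occurred as well, as in Mrps18c (0.20 ± 0.06) and the DNA helicase gene Helq (-0.17 ± 0.13), 72 bases apart. Of the 13 neighbours tested, 10 were above 0 and 3 below, with a median difference of 0.14. Among all features 56.0% were above 0, with a median of 0.03. The 13 include Mrpl46 and Mrps11, which are members themselves and were each counted as the neighbour of the other.

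The median level of the family was slightly higher after o-nitroanisole, with members on both sides of 0. The median log2 difference of the 66 members was 0.12, with 56 above 0 and 10 below, where the median of all 32434 features tested was 0.03 and 56.0% lay above 0. All 66 members were well above background on all 6 arrays, so none was kept through 1 group alone. For each array, the median over members of the level minus the gene's mean over both groups was -0.06 for corn oil replicates 1, 2 and 3 alike, and 0.05, 0.05 and 0.06 for o-nitroanisole replicates 1, 2 and 3. With this scaling the family median was above that of every corn oil array on each o-nitroanisole array. In 36 members every o-nitroanisole array lay above every corn oil array (17.6% of all features did), and in 1 member, Mrpl36, every one lay below (9.56% of all features did).

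Single members did not pass the test across all features. With limma's default moderation and Benjamini-Hochberg adjustment at 0.05, 0 of 66 members and 0 of all features passed (0%). At an unadjusted p under 0.05, 18 members were higher and 0 lower, where 11.8% of all features were higher and 7.12% lower. With quantile scaling 3 were higher and 2 lower (8.79% and 7.95% of all features), and with cyclic loess 2 and 2 (8.32% and 8.61%). Fits to 5 of the 6 arrays had between 7 and 13 higher members, the fewest without corn oil replicate 3. With limma's trend and robust options 1.24% of all features passed as higher and 0.373% as lower, and Mrpl46 was the only member among them. Since the members were picked with this contrast known, nothing is read from these counts.

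**Figure D1:**
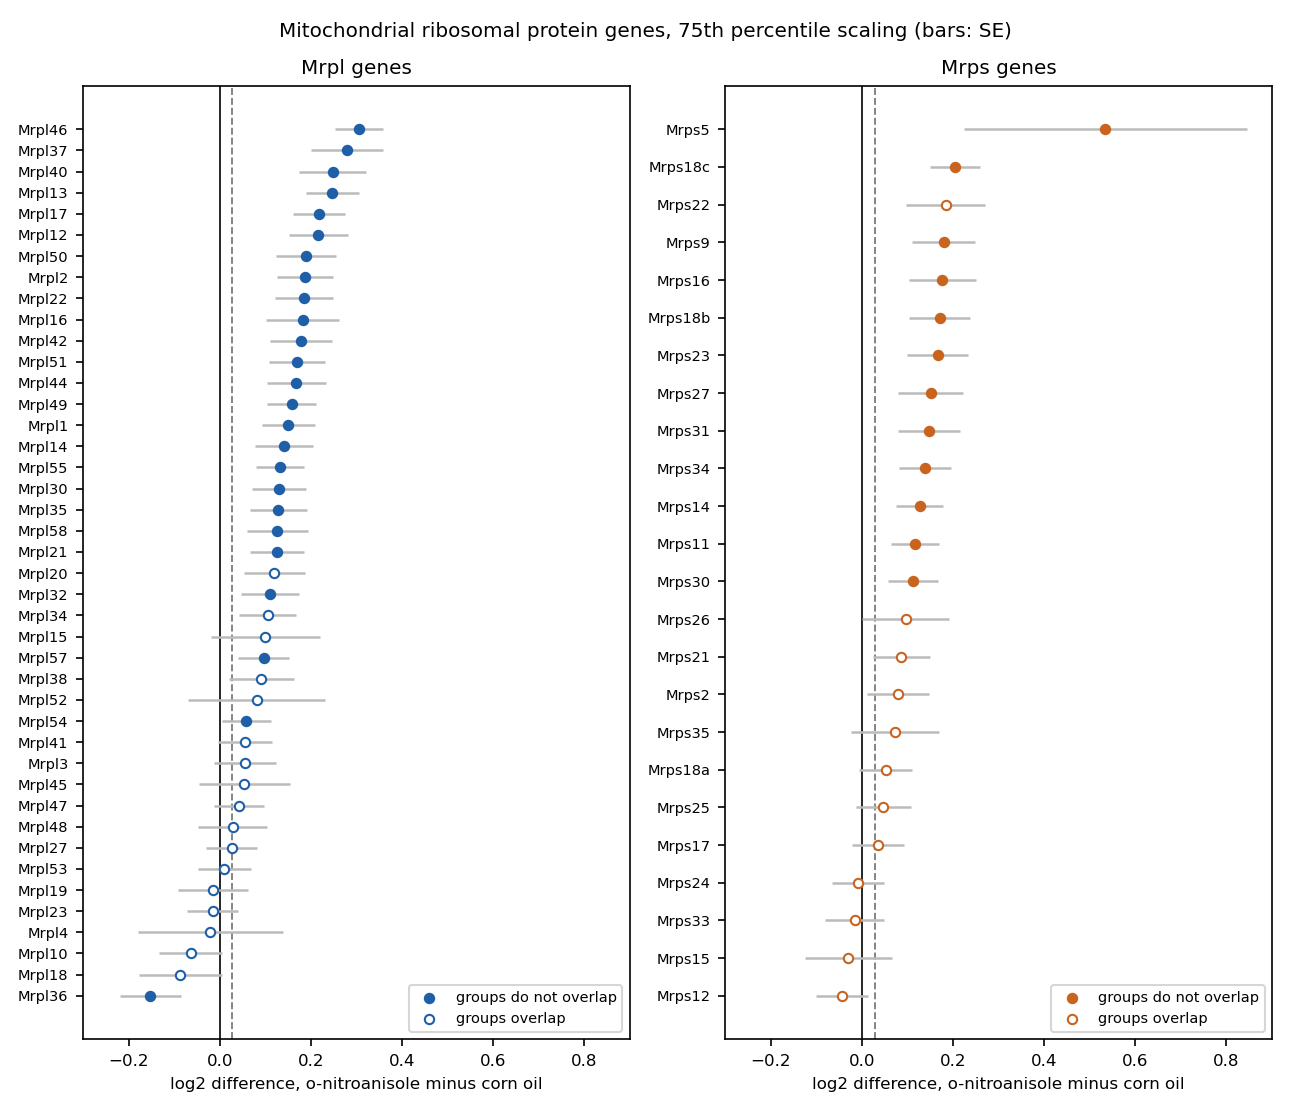
Log2 difference between o-nitroanisole and corn oil for each of the 66 genes, Mrpl and Mrps genes in separate panels, with bars giving the moderated SE (n = 3 rats per group) filled points where the groups did not overlap and open points where they did. The dashed line is the median of all features, 0.03. Most genes lie between 0 and 0.25, with Mrps5 at 0.53 and Mrpl36 at -0.15 as the ends.

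Among the large subunit genes the largest difference was that of Mrpl46, whose protein is found only in mitochondrial ribosomes. Its level was 2.02, 1.99 and 2.01 in corn oil replicates 1 to 3 and 2.29, 2.32 and 2.32 in o-nitroanisole replicates 1 to 3. The rats of a group lay close together, and the groups stood apart by 0.31 ± 0.05 (SE, n = 3 per group). Mrpl37, likewise specific to mitochondria, read 4.82, 4.86 and 4.76 with corn oil and 5.20, 4.97 and 5.12 with o-nitroanisole, a difference of 0.28 ± 0.08. The treated rats spread more than the controls here, but every one was higher.

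Mrpl13 and Mrpl17 encode counterparts of bacterial large subunit proteins. Mrpl13 read 4.17, 4.25 and 4.22 with corn oil and 4.43, 4.45 and 4.50 with o-nitroanisole, a difference of 0.25 ± 0.06. Mrpl17 read 4.48, 4.56 and 4.50 against 4.71, 4.72 and 4.78, a difference of 0.22 ± 0.06. In both genes the groups did not overlap, and the gap between groups was wider than the spread within either. Mrpl12, a protein of the stalk that recruits translation factors, read 5.53, 5.48 and 5.53 against 5.66, 5.72 and 5.81, a difference of 0.22 ± 0.06. Mrpl40 read 3.65, 3.68 and 3.60 against 3.96, 3.78 and 3.94 by its brightest probe, a difference of 0.25 ± 0.07. Its other 3 probes gave 0.07, 0.06 and -0.02, so its difference rests on the probe chosen.

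At the other end of the large subunit stood Mrpl36, a small zinc-binding protein with a bacterial counterpart. Its level was 4.12, 4.03 and 4.04 in the corn oil rats and 3.99, 3.87 and 3.86 in the o-nitroanisole rats, a difference of -0.15 ± 0.07. The groups did not overlap, though the highest treated rat came close to the lowest control, and the mean over both probes of the gene was -0.08. Mrpl18 read 3.61, 3.37 and 3.53 against 3.40, 3.33 and 3.52, a difference of -0.09 ± 0.09. Mrpl10, which anchors the stalk that Mrpl12 belongs to, read 6.59, 6.55 and 6.54 against 6.42, 6.59 and 6.47, a difference of -0.06 ± 0.07. In both genes the groups overlapped with this scaling and the difference was no larger than its SE. Mrpl4, Mrpl23 and Mrpl19, counterparts of bacterial proteins, differed by -0.02 ± 0.16, -0.02 ± 0.06 and -0.01 ± 0.08, all with overlapping groups. The wide error of Mrpl4 came with 1 rat, o-nitroanisole replicate 3 at 1.45, while replicates 1 and 2 of that group read 1.91 and 2.03.

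Among the small subunit genes, Mrps5 had the largest difference in the family, but 1 array carried it. Its level was -0.23, -0.13 and -0.43 with corn oil and -0.08, 0.98 and -0.09 with o-nitroanisole. The difference of 0.53 ± 0.31 became 0.18 without o-nitroanisole replicate 2. Mrps18c, a counterpart of a bacterial small subunit protein, read 3.85, 3.81 and 3.78 against 4.01, 4.01 and 4.04. Its difference of 0.20 ± 0.06 was larger than the spread within either group.

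Mrps9 and Mrps16 also have bacterial counterparts. Mrps9 read 2.36, 2.26 and 2.29 against 2.57, 2.46 and 2.41, a difference of 0.18 ± 0.07, and Mrps16 read 5.64, 5.76 and 5.67 against 5.77, 5.88 and 5.95, a difference of 0.18 ± 0.07. Mrps18b read 1.03, 1.08 and 1.18 against 1.32, 1.25 and 1.23, a difference of 0.17 ± 0.07. In these 3 genes the groups were separate but close, with less than the SE of the difference between the nearest rats. Mrps22, a protein specific to mitochondria, read 0.26, 0.51 and 0.37 against 0.63, 0.58 and 0.48, and its groups overlapped at a difference of 0.18 ± 0.09. Mrps14 and Mrps11 had smaller differences with tighter replicates: Mrps14 read 3.70, 3.70 and 3.71 against 3.82, 3.84 and 3.82, a difference of 0.13 ± 0.05. The other probes of Mrps14 gave 0.08 and -0.02.

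The lowest small subunit genes did not separate the groups with the 75th percentile. Mrps12, the counterpart of a bacterial protein at the decoding site, read 3.87, 3.80 and 3.87 against 3.83, 3.81 and 3.77, a difference of -0.04 ± 0.06. Its second probe gave 0.10. Mrps15, Mrps33 and Mrps24 differed by -0.03 ± 0.10, -0.02 ± 0.06 and -0.01 ± 0.06, and Mrps17 and Mrps25 by 0.04 ± 0.06 and 0.05 ± 0.06. In all 6 genes the groups overlapped and the difference was smaller than its SE with this scaling. With quantile scaling Mrps12, Mrps33 and Mrps24 stood at -0.11, -0.09 and -0.08, with every o-nitroanisole rat below every corn oil rat, and likewise with cyclic loess.

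**Figure D2:**
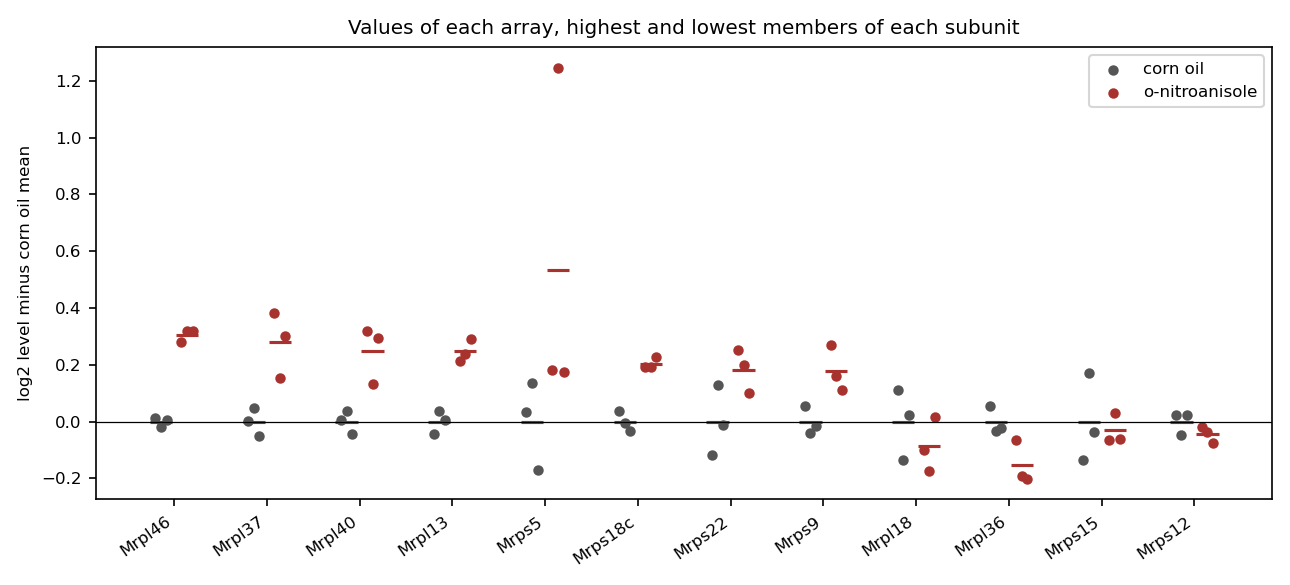
Log2 level minus the gene's corn oil mean on each of the 6 arrays, for the members with the highest and lowest differences in each subunit, with points for rats and short lines for group means. The o-nitroanisole points of Mrpl46 cluster around 0.31, while in Mrps5 a single o-nitroanisole rat (level 0.98) stands far above the others.

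The large and the small subunit did not stand apart. The median difference was 0.12 for the 42 Mrpl genes, with 36 above 0 and 6 below, and 0.11 for the 24 Mrps genes, with 20 above and 4 below. The o-nitroanisole arrays lay wholly above the corn oil arrays in 24 Mrpl and 12 Mrps genes, as in 17.6% of all features. The Mrpl median minus the Mrps median was 0.0088 with 75th percentile scaling, 0.0149 with quantile scaling, 0.0116 with cyclic loess and -0.016 after normexp background correction. Taken on each array, Mrpl minus Mrps was -0.0072, -0.022 and -0.028 in the corn oil rats and 0.014, -0.015 and 0.029 in the o-nitroanisole rats, so the groups overlapped. Leaving out single arrays gave 0.0018 (without o-nitroanisole replicate 1) to 0.0145 (without o-nitroanisole replicate 2). Mrps30 and Mrps18a keep a small subunit name, but their proteins sit in the large subunit of the mammalian structure. They differed by 0.11 ± 0.05 and 0.05 ± 0.06, and counting them with the large subunit turned the median difference to -0.0063.

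How far the family lay above 0 depended on the scaling. Its median difference was 0.12 with the 75th percentile, 0.14 with the array median, 0.08 after normexp, 0.05 with quantile and 0.04 with cyclic loess scaling, while the median of all features was 0.03 and 0.0051 with the first and with quantile scaling. With quantile scaling 46 members lay above 0 and 20 below, and the groups were separate with o-nitroanisole higher in 23 members and lower in 8, where 13.2% and 11.5% of all features were. For Mrpl and Mrps genes apart, the quantile medians were 0.05 and 0.04. Across the 5 ways of scaling or background correction, 39 members were above 0 in every one, 2 (Mrpl36 and Mrps12) were below 0 in every one and 25 changed sign. Mrps30 was at -0.07 after normexp, and Mrps18a was at -0.0052 with quantile scaling and -0.08 after normexp. Mrpl10 went from -0.06 to -0.21 with quantile scaling, where its groups did not overlap, and to 0.00093 after normexp. Mrpl54 had separate groups in opposite directions, at 0.06 with the 75th percentile and -0.04 with quantile scaling. In 14 members (11 Mrpl, 3 Mrps) every o-nitroanisole rat was above every corn oil rat in all 5, as in 9.43% of all features. In the brightest of 4 equal bins by mean level, this held for 12 of 57 members and 14.4% of all features. In 0 members was every o-nitroanisole rat below every corn oil rat in all 5, as in 5.21% of all features. The 14 members higher in all 5 included all 6 of the Mrpl genes with the largest differences, together with Mrps18c, Mrps14 and Mrps11. All 5 used the same probe for each gene, and Mrpl40 and Mrps14 each had another probe below 0.

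**Figure D3:**
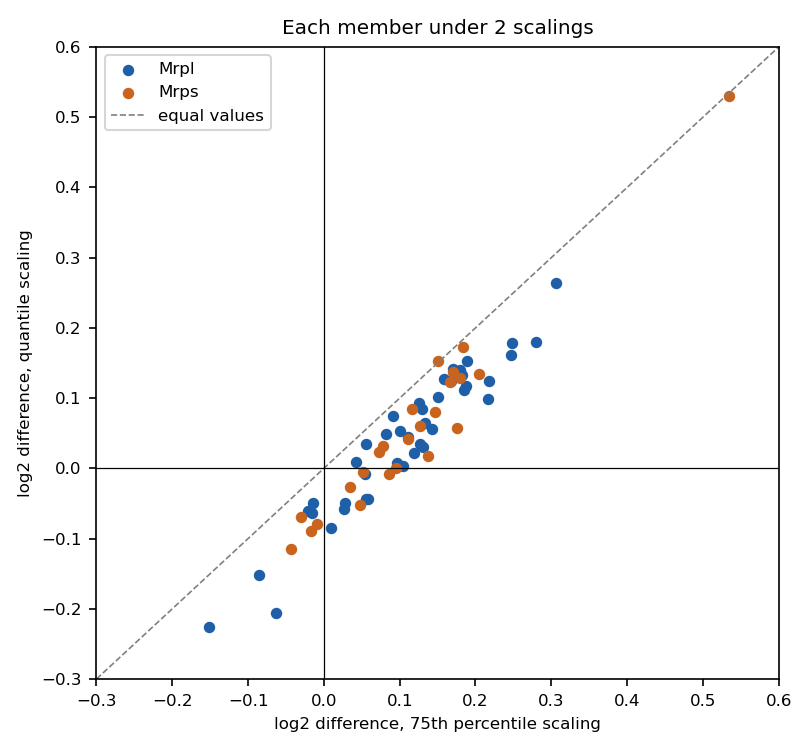
Log2 difference of each member with quantile scaling (vertical) against that with 75th percentile scaling (horizontal), Mrpl and Mrps genes in different colours, with a line of equal values. Most points lie below the line, and the median falls from 0.12 to 0.05.

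The members were bright genes, and brightness went with the effect of scaling. When all features were put into 4 equal bins by mean level, a step added after the data had been seen, 57 members fell in the brightest bin, 9 in the next and 0 in the dimmer 2. In the brightest bin the median difference of all features was 0.075 with the 75th percentile and 0.0028 with quantile scaling. The members of that bin had medians of 0.11 and 0.035. The 9 members of the next bin had medians of 0.16 and 0.14, where all features of the bin had 0.015 and 0.0055. In the brightest bin, 34.9% of all features had every o-nitroanisole rat above every corn oil rat with the 75th percentile. Over all bins, 17.6% of features and 36 of the 66 members did. The brightest bin is the closer comparison, since 57 members lay in it, but those 57 were not counted apart.

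**Figure D4:**
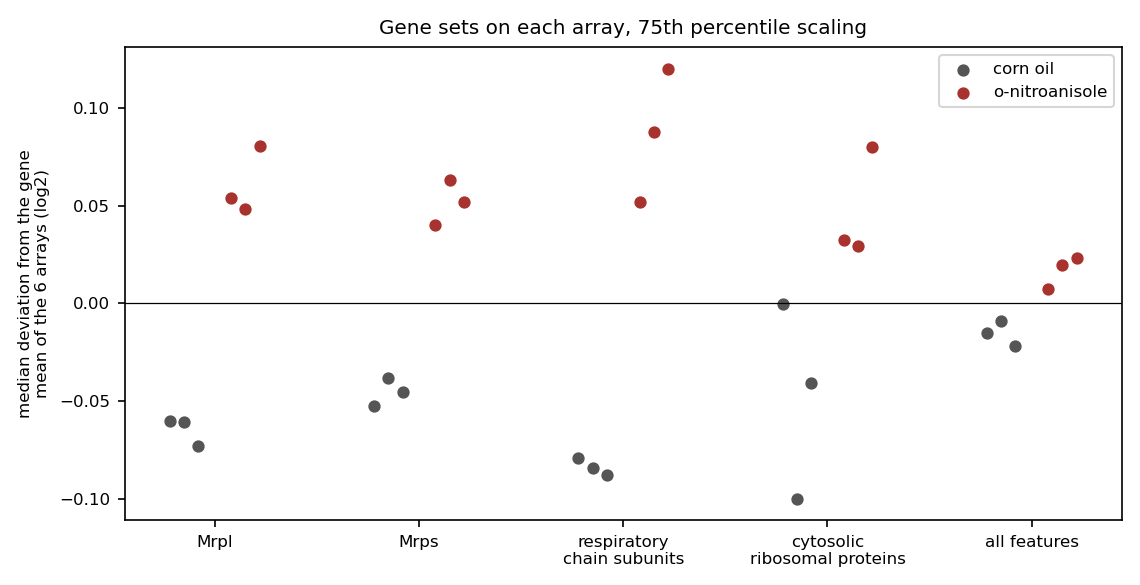
Median over genes of the level minus the gene's mean over both groups, on each of the 6 arrays, for Mrpl genes, Mrps genes, respiratory chain subunits, cytosolic ribosomal proteins and all features. The Mrpl points run from -0.07 to -0.06 in corn oil rats and from 0.05 to 0.08 in o-nitroanisole rats, and the Mrps points from -0.05 to -0.04 and from 0.04 to 0.06.

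The members varied little between rats. Their median SD within a group was 0.055, against 0.134 over all features, with a range from 0.0090 to 0.45, the highest being Mrps5. Their differences also varied less between genes, with an SD of 0.10 against 0.33 over all features. All features include dim ones, while 57 members lay in the brightest of 4 equal bins by mean level. No SD was taken over features of like brightness, so neither gap is read as particular to the family. Of the 34 members with more than 1 tested probe, 24 had probes of 1 sign. The other 10 (Mrpl10, Mrpl20, Mrpl30, Mrpl40, Mrpl45, Mrpl50, Mrps12, Mrps14, Mrps17 and Mrps34) had probes on both sides of 0. In Mrpl50 the brightest probe gave 0.19 ± 0.07 and the other -0.15 ± 0.32. Mrpl30, whose 3 probes gave 0.13, 0.15 and -0.09, has 9 named pseudogenes in the RefSeq table. In all, 21 members have named pseudogenes, whose transcripts a probe could share, and this was not tested.

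A few proteins of the mitochondrial ribosome carry other names. Of the 5 listed, all were above 0 with the 75th percentile, with a median of 0.05 (0.084 without o-nitroanisole replicate 2 or 3), and 3 with quantile scaling, with a median of 0.015, and 0 passed the adjusted threshold. Ptcd3, an RNA-binding protein of the small subunit with pentatricopeptide repeats, read 5.01, 5.26 and 5.20 with corn oil and 5.96, 5.96 and 6.20 with o-nitroanisole. Its difference of 0.88 ± 0.11 (limma adjusted p = 0.082 over all features) exceeded that of every Mrpl and Mrps gene, and it was 0.76 with quantile scaling. It passed the adjusted threshold with limma's trend and robust options. Aurkaip1, Dap3, Chchd1 and Gadd45gip1, also ribosome proteins, lay at 0.12, 0.05, 0.05 and 0.03.

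Of the 15 mitochondrial translation factors tested, 12 were above 0, with a median of 0.13 (0.07 with quantile scaling). In 9 every o-nitroanisole rat lay above every corn oil rat and in 0 below, where 17.6% and 9.56% of all features did. None of the 15 passed the adjusted threshold. Mtres1, which acts on stalled mitochondrial ribosomes, read 1.73, 1.83 and 1.85 against 2.13, 2.06 and 2.31. Mtif2, the initiation factor, read 1.86, 1.79 and 1.74 against 2.08, 2.09 and 2.17. Both had separate groups, at differences of 0.36 and 0.31. The elongation factor Tufm differed by 0.13 ± 0.09 with overlapping groups, and the lowest were the release factor Mtrf1l at -0.02 and Mtfmt, which formylates the initiator tRNA, at -0.11 ± 0.12.

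The 23 tested genes for ribosome assembly and rRNA modification had a median of 0.10 (0.09 with quantile scaling), with 16 above 0, 7 below and 0 past the adjusted threshold. Rpusd3, a pseudouridine synthase family member, read 0.20, 0.10 and 0.26 against 0.70, 0.68 and 0.49. Tfb1m, which methylates the small subunit rRNA, read -0.99, -0.84 and -0.92 against -0.43, -0.57 and -0.65. The groups of both were separate, at 0.44 and 0.36 ± 0.08. Ybey and the large subunit rRNA methyltransferase Mrm2 were the lowest, at -0.12 ± 0.09 and -0.14 ± 0.12, both with overlapping groups.

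The 16 tested genes for charging mitochondrial tRNAs, mostly aminoacyl-tRNA synthetases with the glutamyl-tRNA amidotransferase subunits Qrsl1 and Gatc, were mixed, with 10 above 0, 6 below, a median of 0.04 and 0 past the adjusted threshold. That median was -0.016 when the first corn oil array was left out and 0.095 when the second was. Pars2, for proline, was highest at 0.35 ± 0.10, followed by Fars2, for phenylalanine, at 0.26. Wars2, for tryptophan, read -0.23, -0.36 and -0.26 with corn oil and -0.76, -0.51 and -0.63 with o-nitroanisole. Its difference was -0.35 ± 0.09 with separate groups (limma adjusted p = 0.145), while Sars2, for serine, lay at -0.12. Qrsl1 and Gatc lay at -0.02 and -0.10, both with overlapping groups.

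Genes that transcribe and maintain mitochondrial DNA had a median of 0.15 over 11 tested (0.11 with quantile scaling), with 10 above 0 and 0 past the adjusted threshold. Polrmt, the mitochondrial RNA polymerase, read 3.30, 3.37 and 3.34 against 3.59, 3.56 and 3.53, a difference of 0.22 ± 0.06. Tfam, which packages and starts transcription of mitochondrial DNA, read 2.67, 2.65 and 2.60 against 2.85, 2.85 and 2.77, a difference of 0.18 ± 0.06. Both had separate groups, as did the exonuclease Mgme1 at 0.25 ± 0.08, while Mterf2 lay at 0.07 and the helicase Twnk at -0.0056 ± 0.07.

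The 8 regulators of nuclear genes for mitochondria showed no common direction, with 3 above 0, 5 below, a median of -0.08 (-0.118 without o-nitroanisole replicate 1) and 0 past the adjusted threshold. The coactivators Ppargc1a and Ppargc1b and the factor Yy1 had every o-nitroanisole rat below every corn oil rat. Ppargc1a read -0.45, -0.35 and -0.52 against -0.69, -0.72 and -0.66, a difference of -0.25 ± 0.07 (limma adjusted p = 0.156). Ppargc1b differed by -0.41 ± 0.14 and Yy1 by -0.29 ± 0.09. Esrra, an orphan nuclear receptor, differed by 0.16 ± 0.07, the coactivator Pprc1 by 0.14 ± 0.07 and Gabpa by 0.09 ± 0.06, with separate groups. Nrf1 differed by -0.06 ± 0.07 with overlapping groups. The median of the mitochondrial ribosome genes was thus above 0 where Ppargc1a, Ppargc1b and Yy1 were lower and Esrra, Pprc1 and Gabpa higher. No relation between them was tested.

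The respiratory chain and the cytosolic ribosome were set beside the family as the lists most like it. The 73 tested nuclear-encoded subunits of the respiratory chain had a median of 0.18 with the 75th percentile and 0.05 with quantile scaling, with 70 above 0 and 3 below on the first. Their groups were separate and higher in 59 and lower in 0, where 17.6% and 9.56% of all features were. With quantile scaling the counts were 22 and 2, against 13.2% and 11.5% of all features. By default 0 passed, and 8 passed as higher with trend and robust options, as did 1.24% of all features. Ndufb6 of complex I read 6.02, 5.99 and 6.01 against 6.39, 6.28 and 6.34. The 81 tested cytosolic ribosomal proteins had a median of 0.10 with the 75th percentile but -0.04 with quantile scaling and -0.03 with cyclic loess, so their direction turned with the scaling, and 0 passed. Leaving out corn oil replicate 2 gave a median of 0.063 with the 75th percentile. With that scaling the groups were separate and higher in 37 of the 81 and lower in 0, against 17.6% and 9.56% of all features. With quantile scaling the counts were 2 and 19, against 13.2% and 11.5%. Rpl35 lay at 0.20 and Rpl19 at -0.10. The medians of the mitochondrial ribosome genes and of the respiratory chain subunits both stayed above 0 under all 5 ways of scaling or background correction. So did those of the other mitochondrial lists, apart from the regulators. No test was made of the difference between these lists.

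**Figure D5:**
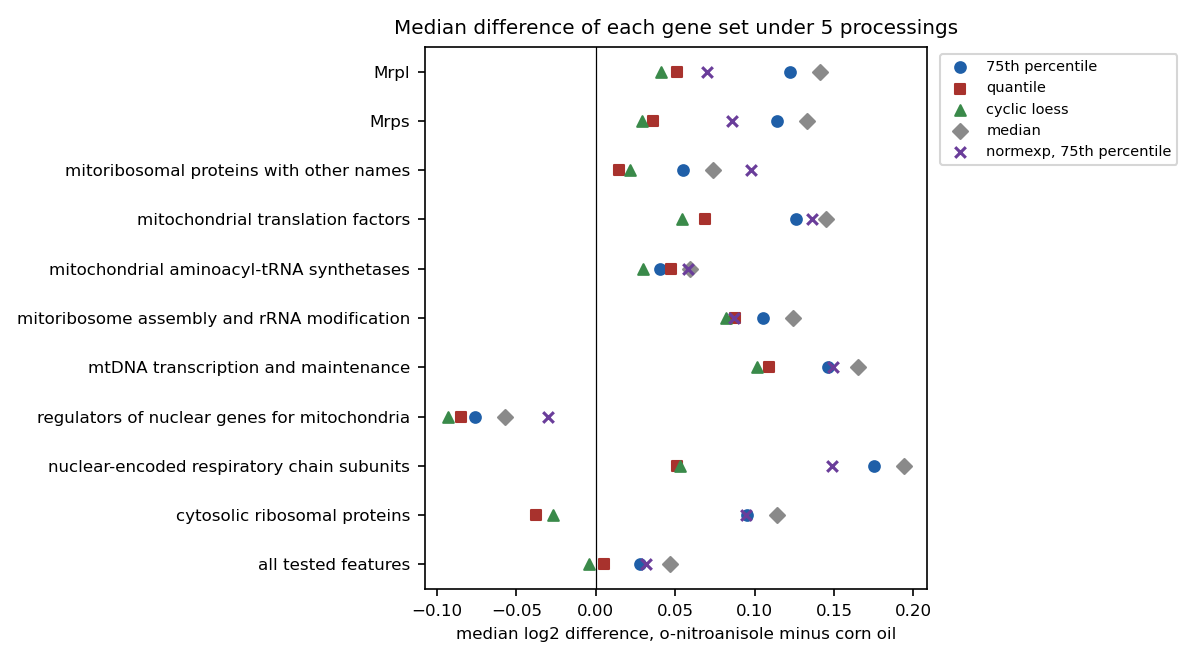
Median log2 difference (o-nitroanisole minus corn oil) of each gene list and of all features, with a marker for each of 4 scalings and for normexp background correction. The Mrpl and Mrps medians move from 0.12 and 0.11 with the 75th percentile to 0.05 and 0.04 with quantile scaling, while that of the cytosolic ribosomal proteins moves from 0.10 to -0.04.

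With 75th percentile scaling, markers of some cell types differed between the groups. Of all features, 17.6% had every o-nitroanisole rat above every corn oil rat with this scaling, and 9.56% had every one below. Features in the brightest of 4 equal bins by mean level had a median difference of 0.075, and of 0.0028 with quantile scaling. The marker sums were not taken with other scalings. In whole cortex, fewer cells of a type and less RNA per cell cannot be told apart. The summed linear level (signal over the array's 75th percentile) of the proximal tubule markers ran from 1608 to 1629 in corn oil rats and from 1650 to 1709 in o-nitroanisole rats, with 4 of 9 markers wholly higher and 1 lower. For red blood cell markers it ran from 168 to 194 and from 262 to 313, with 6 of 6 tested wholly higher and Rhag not above background on any array. Collecting duct markers ran from 161 to 179 and from 194 to 216, with 5 of 7 higher. Loop and distal tubule markers ran from 476 to 521 and from 406 to 432, with 2 of 4 wholly lower and Pvalb not above background. The sum and the list differ in direction here, since the median log2 difference of the 4 was 0.07, with 2 above 0 and 2 below. Fibroblast markers ran from 33.8 to 35.3 and from 25.4 to 28.1, with 2 of 5 lower. Neutrophil markers were low, from 0.284 to 0.315 and from 0.570 to 0.883, with 2 of 3 higher and Elane not above background. The summed levels of podocyte (26.1 to 29.8 and 28.9 to 33.2), macrophage (3.03 to 3.43 and 2.65 to 3.50) and lymphocyte markers (0.720 to 1.06 and 0.759 to 0.990) overlapped. Endothelial markers ran from 28.6 to 30.1 and from 30.4 to 33.9, with 1 of 5 wholly higher. Medulla markers spread from 17.8 to 50.8 among corn oil rats alone, against at most 18.7 with o-nitroanisole. Here too the list does not follow the sum: 1 of the 3 markers was wholly higher and 0 wholly lower. Their median log2 difference was 0.011, with 2 above 0 and 1 below. Of the adrenal and adipose markers, Star, Cyp11b1 and Cyp11b2 were not above background on any array, and the median of the 2 tested stood 1.79 above its mean on o-nitroanisole replicate 3 but at -0.03 or below on the other arrays. The part of these in the differences of the mitochondrial ribosome genes was not tested.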

How the data were processed

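Intensities were deposited as Agilent Feature Extraction 10.7 output, per the file headers: processed signals, background-subtracted within each array. The deposited value table holds ratios of that signal to each array's 75th percentile, as checked against the scanner files within 1%. Its corn oil columns 1, 2 and 3 matched the scanner files of replicates 3, 1 and 2, so replicate numbers within that group are uncertain. Scanner files were used.

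Of 61657 non-control probes, 27447 were named through RefSeq accessions (table of GRCr8; array design rn4). The 84 spike-in probes and 51 outlier spots were left out. Array 75th percentiles were 905 to 1041, and 66.4% to 71.5% of probes were well above background. Log2 processed signal minus the 75th percentile was fitted with limma 3.58.1 (R 4.3.3) for 32434 features that were well above background throughout 1 group or both, brightest probe per gene, Benjamini-Hochberg threshold 0.05. The number of arrays limits the precision. The script was tested on simulated data. Members, gene lists and tests were chosen with earlier results of these data known. Named were the 6 highest and 6 lowest members of each subunit, those whose probes differed in sign, Mrps30 and Mrps18a, and, in other lists, the 2 highest and 2 lowest and Tfam, Polrmt, Nrf1, Gabpa, Ppargc1a and Tufm. Mrps11, Mrpl54, Qrsl1, Gatc and the genes that start beside a member were added after their values were seen. Same-numbered rats were not paired in the fit, since no label says that a replicate number pairs rats. The correlations of their deviations from the group means were 0.091, 0.058 and 0.026. Those of differently numbered rats ran from -0.097 to 0.034. With the corn oil numbers uncertain, these values cannot show whether rats were paired. Other scalings, normexp, filters, moderation, probe choice and each array left out were tried.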

Additional observations from a re-analysis of the deposited data

How the results depend on the processing

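The alternatives included 6 fits that left out 1 array. Under most alternatives, counts past the adjusted threshold and list medians stayed near those of the main fit. Single members were less stable: 25 of the 66 changed sign across the 5 ways of scaling or background correction. At an unadjusted p under 0.05, 18 members were higher in the main fit, 3 with quantile scaling and 2 with cyclic loess. The count of all features past the adjusted threshold was 0, but 115 after normexp, 523 with trend and robust options, and 0 to 8 on leaving out single arrays (8 without corn oil replicate 3, 1 without corn oil replicate 1). Trend and robust options passed 1 member, an Mrpl gene, 1 ribosome protein of another name and 8 respiratory chain subunits, and normexp passed 1 ribosome protein of another name. With quantile scaling the median difference was 0.0051 for all features, 0.047 for members, 0.051 for Mrpl, 0.036 for Mrps, 0.069 for translation factors, -0.038 for cytosolic ribosomal and 0.051 for respiratory chain genes. With cyclic loess these were -0.0040, 0.040, 0.041, 0.029, 0.054, -0.027 and 0.053. With median scaling they were 0.047 for all features, 0.137 for members, 0.141 for Mrpl and 0.133 for Mrps. After normexp they were 0.076 for members, 0.070 for Mrpl, 0.086 for Mrps, 0.098 for ribosome proteins of other names and 0.149 for the respiratory chain, and Mrpl minus Mrps was -0.016. Without the filter on dim probes the median of all features was -0.0040. The mean over probes gave -0.150 for the regulators. Leaving out single arrays gave 0.118 to 0.125 for members, 0.111 to 0.124 for Mrps, 0.115 to 0.184 for translation factors and -0.016 to 0.095 for the tRNA-charging genes. The causes were not tested. Neither slide nor scan could be fitted as a block, since each slide and each scan held 1 group. With the replicate number as a block, 0 features passed and 8 members were higher at an unadjusted p under 0.05, against 18 without it.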
